A study of Mus musculus with 3 samples.

Results

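The natural killer (NK) gene complex of the mouse encodes a set of lectin-like receptors of NK cells, and 8 of its genes are described here out of 32285 genes counted in each library. They were chosen by symbol, with earlier results of these data known. Klrc1 encodes NKG2A, Klrc2 encodes NKG2C, Klrd1 encodes CD94 and Klrk1 encodes NKG2D. Klre1 and Klri2 encode the chains KLRE1 and KLRI2, Klrb1c encodes NKR-P1C, the NK1.1 antigen, and Klrb1f encodes NKR-P1F.

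These receptors tune how readily NK cells respond. CD94 pairs with NKG2A or with NKG2C, and both pairs bind the nonclassical class I molecule Qa-1, the product of H2-T23. NKG2A carries inhibitory motifs that recruit phosphatases, whereas NKG2C signals through the adaptor DAP12, the product of Tyrobp. NKG2D binds stress-induced ligands and signals through DAP10, the product of Hcst, and through DAP12. KLRE1 forms an activating pair with KLRI2 and an inhibitory pair with KLRI1. NKR-P1C signals through the Fc receptor gamma chain, the product of Fcer1g, and NKR-P1F binds lectin-like ligands of the Clr family. Activated CD8 T cells can also carry CD94, NKG2A and NKG2D.

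Tumor-infiltrating lymphocytes (TILs) came from subcutaneous MC38-Ova colon adenocarcinomas grown from 250000 cells in wild-type C57BL/6 Kaede mice, whose cells all carry a photoconvertible fluorescent protein. Tumors were photoconverted on day 13 and taken on day 15, so Kaede-green cells entered within those 2 days and Kaede-red cells had been there for longer. There were 2 libraries of Kaede-green cells, labelled as biological replicates 1 and 2, and 1 of Kaede-red cells. Where values are given for each library, they stand in that order, with Kaede-red last. All 3 came from tumors given an isotype control, the study's methods give an age range for adult mice of the whole project only, and the number of animals behind a library is not given in the sources used here. Live CD45+ TER119- cells were sorted and CD11b+ NK1.1- cells were discarded. A cell with CD11b protein was therefore kept only with NK1.1, the product of Klrb1c, which bears on each value of Klrb1c in cells with Itgam, the gene of CD11b.

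Cell groups were set by raw UMIs (unique molecular identifiers, each counting a captured RNA molecule). NK cells held at least 1 UMI of Ncr1 and at most 1 of Cd3e. NK cells with at least 2 UMIs of Rora and none of Eomes were called ILC-like and kept apart. The other 7952 NK cells were split by the integrin genes Itgam, a marker of circulating NK cells, and Itga1, which encodes CD49a and marks tissue residence. There were 804 Itgam NK cells, 2156 Itga1 NK cells, 115 with both, 4877 with neither and 507 ILC-like cells. CD8 T cells held at least 2 UMIs of Cd3e with Cd8a and Cd8b1, and were split into 3781 with Havcr2, the gene of the checkpoint receptor TIM-3, and 6386 without. CD4 T cells (871), regulatory T cells (Tregs, 1278) and B cells (307) gave further levels. Kaede-red held only 7 of the B cells, so each B-cell mean and SD over 3 libraries includes a value from these 7. A level is given in CPM, the UMIs of the gene per 1000000 UMIs of all cells of that group in that library. Means and SDs over 3 libraries join 2 of Kaede-green and 1 of Kaede-red cells, so each SD mixes color with replicate spread. The sources used here do not say whether the Kaede-red library shares tumors with a Kaede-green one.

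Kept cells numbered 10000 to 11078 per library, and between 20 and 36 barcodes were shared by any pair of libraries. Depth moved with the groups and with color. The median cell held 5996.5 UMIs among Itgam NK cells, 20406.5 among Itga1 NK cells and 4275 among B cells, and Kaede-red gave 75 of the Itgam NK cells and 1415 of the Itga1 NK cells. A summed level of 7 ILC1 markers was 896 to 1106 CPM in ILC-like cells and 63.0 to 140 CPM in the Itgam and Itga1 NK groups. Rora, which the gate required, gave 295 to 426 CPM of it in ILC-like cells. The same sum was 711 to 830 CPM in CD4 T cells, 654 to 841 CPM in Tregs and 461 to 584 CPM in the CD8 T groups. Summed T-cell markers (8 genes, the gate genes Cd3e, Cd8a and Cd8b1 included) were 834 to 1248 CPM in these NK groups. They were 1014 to 1188 CPM in ILC-like cells and 7033 to 8784 CPM in both CD8 T groups. Eomes was at 0 in ILC-like cells because the gate required it.

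All 8 genes lie on chromosome 6 (GRCm38), within 962 kb from 128778485 to 129740484, a stretch with 27 protein-coding genes. Klrc1 (129666015 to 129678973), Klrc2 (129647496 to 129660689) and Klrk1 (129610323 to 129623864) are transcribed from the minus strand, and Klrd1 (129591782 to 129598775) and Klre1 (129577905 to 129585827) from the plus strand. Klri2 (129729041 to 129740484) and Klrb1c (128778485 to 128789215) are on the minus strand, and Klrb1f (129045901 to 129057464) is on the plus strand. Klrb1c overlaps Gm44511 on its own strand. In the last 500 bases of their transcripts, from which 3' libraries draw reads, 21.5% of the 91-base windows of Klrc1 also occur in Klrc2, and 8.2% of those of Klrc2 occur in Klrc1 or Klrc3. For Klrb1c this share was 11.3%, with Gm44511 and Klrb1a, and it was 0 for the other 5 genes. These shares describe sequence alone, and their effect on the counts of Klrc1, Klrc2 and Klrb1c was not tested.

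The stretches just before the start sites are printed because neighboring genes of the family had unlike patterns across the cells. They come from RefSeq (GRCm38.p6), which held 6 of the 8 genes, and are given 5′ to 3′ on the strand of the gene, up to 250 bases and without bases that lie in an annotated exon. In Klrc2 (chr6:129660690-129660846, minus strand) and in Klrc3 (chr6:129643338-129643538, minus strand), a close relative of Klrc2, capitals mark the longest run of 100 bases that both share. In Klrk1 (chr6:129623865-129624114, minus strand) they mark the Runx letters TGTGGTT, and in Klrb1f (chr6:129045651-129045900, plus strand) the T-box letters GGTGTG. Klrc1 (chr6:129678974-129679223, minus strand) has no capitals.
Klrc1: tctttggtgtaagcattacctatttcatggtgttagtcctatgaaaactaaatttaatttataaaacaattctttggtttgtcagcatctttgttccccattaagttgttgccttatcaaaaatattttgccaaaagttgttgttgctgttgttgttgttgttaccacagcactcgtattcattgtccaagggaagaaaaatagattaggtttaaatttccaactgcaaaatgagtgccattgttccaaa
Klrc2: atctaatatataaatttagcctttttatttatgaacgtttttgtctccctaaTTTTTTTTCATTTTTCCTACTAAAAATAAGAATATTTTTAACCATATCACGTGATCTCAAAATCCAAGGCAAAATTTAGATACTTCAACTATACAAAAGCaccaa
Klrc3: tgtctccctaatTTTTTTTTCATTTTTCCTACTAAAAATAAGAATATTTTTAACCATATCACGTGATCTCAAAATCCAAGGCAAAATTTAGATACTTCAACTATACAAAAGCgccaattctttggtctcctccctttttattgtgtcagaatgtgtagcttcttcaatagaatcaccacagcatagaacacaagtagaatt
Klrk1: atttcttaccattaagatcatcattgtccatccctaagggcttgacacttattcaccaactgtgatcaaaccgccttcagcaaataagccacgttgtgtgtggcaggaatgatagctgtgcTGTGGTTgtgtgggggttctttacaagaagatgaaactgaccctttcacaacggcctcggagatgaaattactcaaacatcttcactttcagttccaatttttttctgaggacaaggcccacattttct
Klrb1f: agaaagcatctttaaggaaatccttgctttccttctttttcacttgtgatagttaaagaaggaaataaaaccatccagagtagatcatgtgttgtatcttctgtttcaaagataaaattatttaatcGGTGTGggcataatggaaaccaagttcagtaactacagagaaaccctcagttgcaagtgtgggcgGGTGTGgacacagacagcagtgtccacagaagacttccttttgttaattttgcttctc
Aligned over the 250 bases before the start, Klrc2 and Klrc3 were identical at 82.4% of bases, and Klrc1 and Klrc2 at 45.2%. Apart from Klrc2 with Klrc3, all pairs of the genes aligned were at 38.4 to 47.6%, so 45.2% is not particular to Klrc1 and Klrc2. Searched on both strands, the Runx letters TGTGGTT occurred in Klrk1 and Klre1 and in 4.46% of 27025 genes. The T-box letters GGTGTG occurred at 2 positions of Klrb1f and in 16.2% of genes. The Ets letters GGAAGTG (8.64% of genes) and the AP-1 letters TGANTCA (6.87%) occurred in none of the 6 members held. Such matches describe letters and no binding.

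The inhibitory chain gene Klrc1 was read more in CD8 T cells and ILC-like cells than in conventional NK cells. In the Havcr2 CD8 T cells its level was 418, 406 and 421 CPM in the 3 libraries. In ILC-like cells it was 454, 331 and 366 CPM, overlapping the former. CD8 T cells without Havcr2 were at 244, 295 and 344 CPM. Below these groups, with no overlap of libraries, the Itgam, Itga1, double-positive and double-negative NK cells all averaged 195 to 198 CPM and could not be ordered. CD4 T cells (77.0 ± 31.2 CPM, SD, n = 3), Tregs (40.5 ± 13.8 CPM) and B cells (16.1 ± 6.20 CPM) followed.

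Its activating counterpart Klrc2 had another order. Itgam NK cells were highest at 168, 159 and 115 CPM, and ILC-like cells were next at 131, 111 and 79.7 CPM. Havcr2 CD8 T cells (80.0 ± 12.4 CPM), Itga1 NK cells (78.8 ± 16.2 CPM) and the other CD8 T cells (70.3 ± 7.39 CPM) overlapped their neighbors in the order, while CD4 T cells stood below them at 26.4 ± 11.1 CPM. Klrd1, the gene of the chain that both pairs share, was flat by comparison. Its mean was between 814 and 1165 CPM in all NK, ILC-like and CD8 T groups, each overlapping the next in the order, and it was 239.5 CPM in CD4 T cells, 112 CPM in Tregs and 73.9 CPM in B cells.

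Klrk1 ran from 635 ± 69.2 CPM in Itgam NK cells to 503 ± 27.6 CPM in Itga1 NK cells, and then without overlap to 430 ± 12.1 CPM in Havcr2 CD8 T cells and 355 ± 60.9 CPM in the other CD8 T cells. Klre1 was at 514 to 635 CPM on average in the 4 NK groups and at 280 ± 13.6 CPM in ILC-like cells, which overlapped Havcr2 CD8 T cells at 244 ± 37.9 CPM. Klri2 went from 180 ± 37.0 CPM in Itgam NK cells to 63.4 ± 10.8 CPM in ILC-like cells and 24.8 ± 8.53 CPM in CD8 T cells without Havcr2.

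The NKR-P1 genes were read mostly in NK and ILC-like cells. Next by mean came CD4 T cells, at 34.2 ± 10.1 CPM for Klrb1c and 9.38 ± 3.99 CPM for Klrb1f. Klrb1c averaged 408 ± 86.9 CPM in Itgam NK cells, 210 ± 57.1 CPM in Itga1 NK cells and 149 ± 20.1 CPM in ILC-like cells, against 13.4 ± 3.95 and 20.2 ± 5.13 CPM in CD8 T cells with and without Havcr2. B cells, which should lack it, were at 12.2 ± 10.5 CPM. By library this was 18.5, 18.0 and 0 CPM, the last from the 7 B cells of Kaede-red. Klrb1f was between 61.7 and 78.7 CPM on average in all NK and ILC-like groups and at 2.63 ± 1.17 and 4.44 ± 0.478 CPM in the CD8 T groups.

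**Figure D1:**
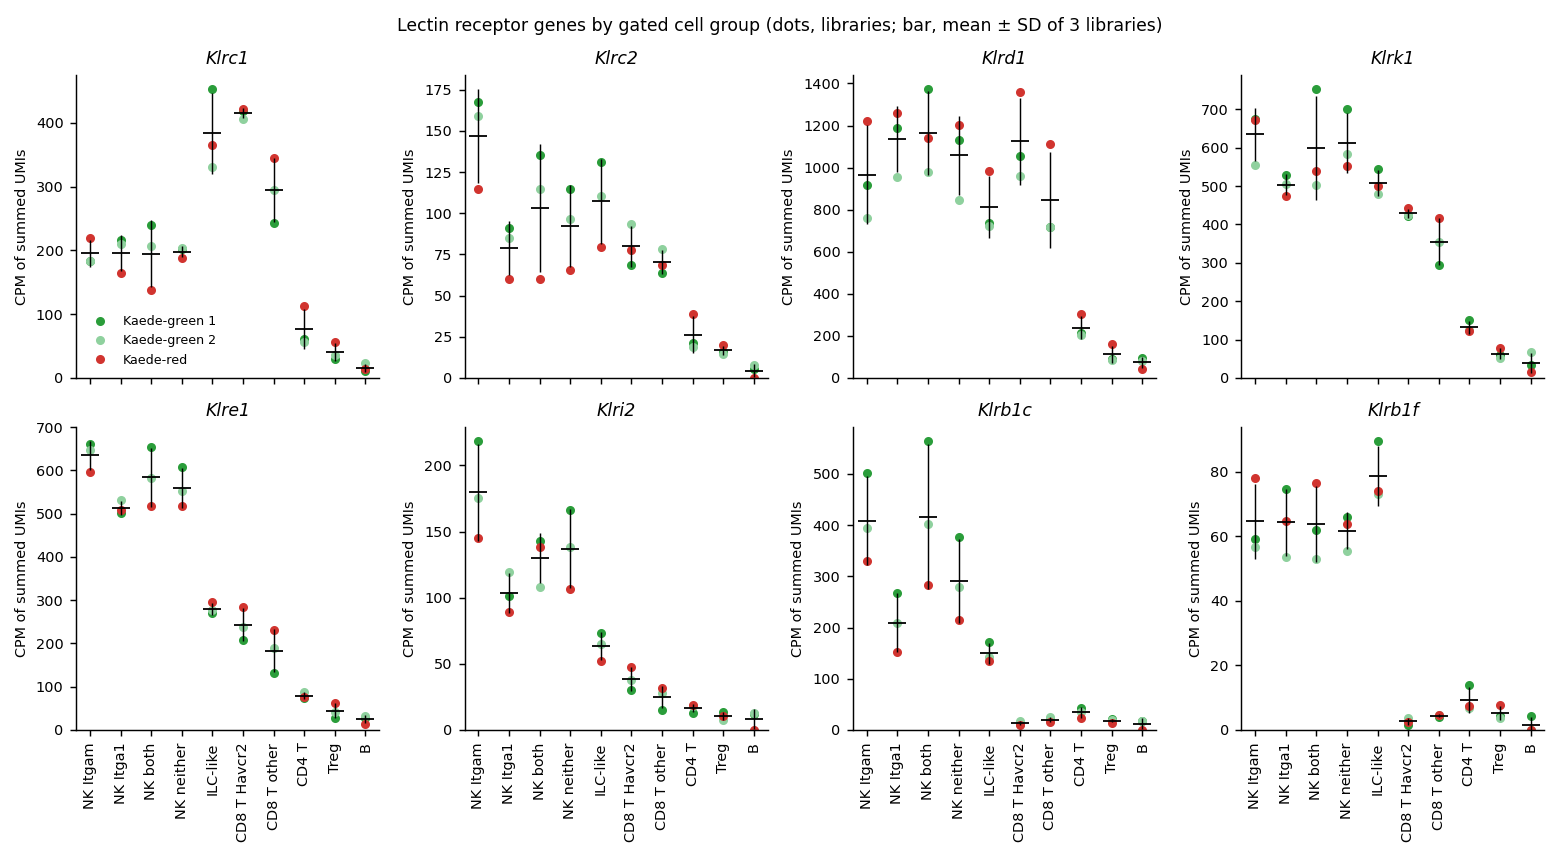
Level of each gene (vertical axis, CPM of summed UMIs, from 0) in 10 gated cell groups. Dots are libraries and the black bar with its line is the mean ± SD of 3 libraries. Klrc1 is highest in Havcr2 CD8 T cells (415 CPM) and ILC-like cells (384 CPM). Outside the NK and ILC-like groups, Klrb1c and Klrb1f are lower, with their highest means in CD4 T cells (34.2 and 9.38 CPM).

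Each cell was thinned to 2000 UMIs to set shares of cells at a common depth. The share of cells with a UMI of Klrc1 was 27.2% in Itgam NK cells (95% exact Clopper-Pearson interval 24.2 to 30.5), 28.0% in Itga1 NK cells (26.1 to 29.9), 50.3% in ILC-like cells (45.9 to 54.7) and 56.8% in Havcr2 CD8 T cells (55.2 to 58.4). In B cells, which should lack the gene, it was 3.26% (1.57 to 5.91). Free RNA and doublets were not told apart there, and 4.76% of the 84 B cells with 5000 UMIs held 5 or more of the 8 genes. Without thinning, Klrc1 was held by 47.0% of Itgam NK cells, 69.4% of Itga1 NK cells and 4.89% of B cells. Intervals cover counting error only. For Klrb1c, 1.82% of Havcr2 CD8 T cells held a UMI, within the B-cell interval of 0.356 to 3.30%. That interval rests on 4 of 307 B cells, and the shares of these groups were not told apart. Klrb1f was found in 0 of 307 B cells (exact upper limit 1.19%, and 0.977% for the floor of 3 counts), in 2 of them before thinning, and in 0.582% of Havcr2 CD8 T cells.

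Across the integrin gates, NKG2C, KLRI2 and NK1.1 transcripts had a lower CPM in Itga1 NK cells and the CD94 transcript a higher one. The NKG2A transcript was not called different, and the NKG2C call was lost at a common depth. The comparison asks how NK cells with a gene of tissue residence differ from those that resemble circulating cells. UMIs were summed per library and group, and the 6 sums were compared with edgeR's quasi-likelihood test with the library as a block and Benjamini-Hochberg adjustment over the 9440 genes tested. The later comparisons used the same test, each adjusted over its own genes. Of the 8 receptor genes, 1 was higher and 4 were lower, where 33.8% of all genes tested were called, 17.6% higher and 16.2% lower. Their median log2 fold change was -0.23, against -0.02 over all genes.

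Klrc2 was at 90.99, 85.1 and 60.4 CPM in Itga1 NK cells and at 168, 159 and 115 CPM in Itgam NK cells. The groups did not overlap, and the log2 fold change was -0.82 ± 0.09 (SE; edgeR adjusted p = 1.2e-04), lower in 3 of 3 libraries. Klrb1c was at 267, 209 and 153 CPM against 501, 393 and 329 CPM, again without overlap, with a log2 fold change of -0.89 ± 0.09 (edgeR adjusted p = 5.1e-05). The sort kept CD11b+ cells only with NK1.1, and its part in this value was not tested. Klri2 was at 101, 119 and 89.4 CPM against 218, 175 and 145 CPM, and its log2 fold change was -0.71 ± 0.12 (edgeR adjusted p = 0.0011).

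Smaller differences were near the threshold. Klre1 was at 502, 531 and 508 CPM against 660, 648 and 597 CPM (log2 fold change -0.23 ± 0.08, edgeR adjusted p = 0.045). Klrk1, the gene of NKG2D, was also lower in each library, at 530, 506 and 475 against 676, 555 and 673 CPM, but did not pass the test (log2 fold change -0.24 ± 0.09, edgeR adjusted p = 0.057). Klrd1 was at 1189, 957 and 1260 CPM in Itga1 NK cells and at 920, 759 and 1221 CPM in Itgam NK cells. The groups overlapped between libraries, yet each library moved up (log2 fold change 0.33 ± 0.09, edgeR adjusted p = 0.013). Without either Kaede-green library the calls of Klrd1 and Klre1 were lost, with adjusted p-values of 0.110 and 0.189 for Klrd1 and of 0.395 and 0.235 for Klre1.

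Klrc1 was at 216, 210 and 164 CPM in Itga1 NK cells and at 183, 183 and 220 CPM in Itgam NK cells. The Kaede-green libraries were higher in the Itga1 group and Kaede-red was lower, so that the log2 fold change was 0.11 ± 0.13 (edgeR adjusted p = 0.54) over 3 libraries and 0.31 (edgeR adjusted p = 0.0038) without Kaede-red, whose Itgam group holds 75 cells. Klrb1f did not pass either (log2 fold change 0.11 ± 0.13, edgeR adjusted p = 0.57).

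Depth and other cell types moved with these gates, and a lower CPM need not mean fewer UMIs per cell. Without thinning, Klrc2 was held by 62.3% of Itga1 and 56.2% of Itgam NK cells. For Klri2 these shares were 61.0 and 56.0%, and for Klrb1c 87.9 and 88.7%. At 5000 UMIs per cell they were 28.0 and 48.5% for Klrc2, 34.7 and 49.7% for Klri2, and 54.8 and 77.9% for Klrb1c. When each cell was thinned to 5000 UMIs before gating, the log2 fold change was -0.68 for Klrb1c, -0.60 for Klri2 and -0.35 for Klre1, all still called, and -0.47 for Klrc2 (edgeR adjusted p = 0.066), no longer called. The summed level of 6 myeloid markers was 14.5 to 391 CPM in Itgam NK cells and 6.64 to 44.0 CPM in Itga1 NK cells, and none of the 6 was at 0 in either group. Without cells in the top 8% of doublet scores, the log2 fold changes of Klrc2, Klri2 and Klrb1c were -0.82, -0.71 and -0.90.

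**Figure D2:**
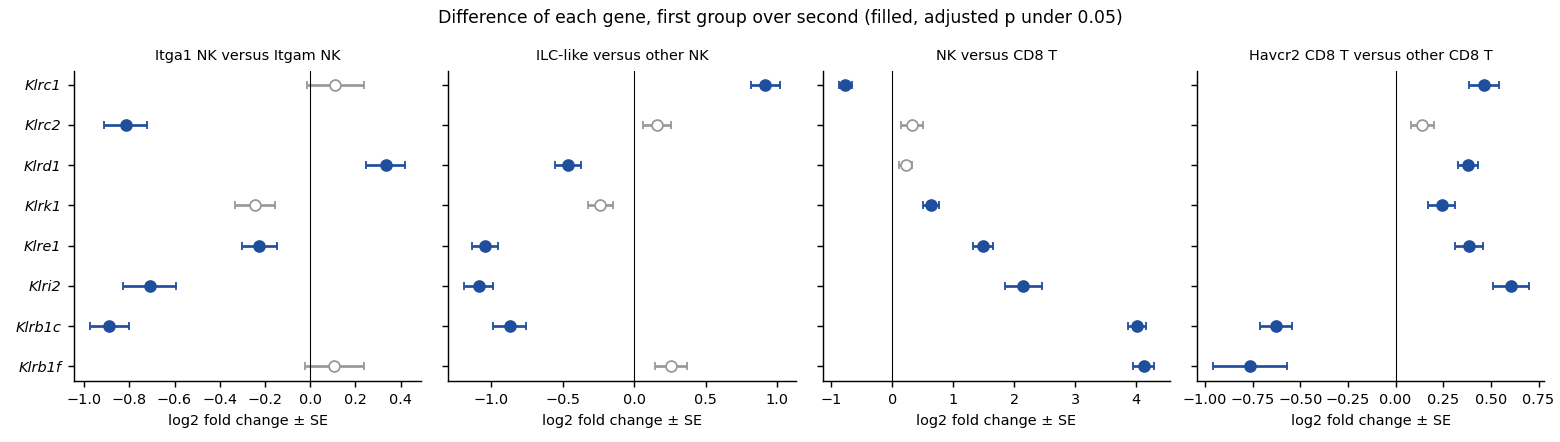
Log2 fold change of each gene (horizontal axis, first group over second, lines ± SE) in 4 comparisons of gated groups, each with its own horizontal scale. Filled blue points passed an adjusted p of 0.05 and open gray points did not. Klrc1 lies at 0.92 in ILC-like over other NK cells and at -0.77 in NK over CD8 T cells, while Klrb1c and Klrb1f lie at 4.01 and 4.13 in the latter.

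ILC-like cells had more of the NKG2A transcript and less of 4 other receptor transcripts than the other NK cells. Of the 8 genes, 1 was higher and 4 were lower, where 5.23% of 11304 genes were called, 2.65% higher and 2.58% lower. The median log2 fold change was -0.35 for the 8 genes and -0.01 for all. Klrc1 was at 454, 331 and 366 CPM in ILC-like cells and at 203, 203 and 173 CPM in the other NK cells. No library of the former overlapped the latter, and the log2 fold change was 0.92 ± 0.10 (edgeR adjusted p = 6.4e-05), higher in 3 of 3 libraries. Against only the NK cells with Itga1, with or without Itgam, it was 0.91 (edgeR adjusted p = 5.9e-07).

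Klre1 and Klri2, whose products pair, were lower together. Klre1 was at 269, 276 and 296 CPM against 595, 557 and 512 CPM (log2 fold change -1.04 ± 0.09, edgeR adjusted p = 6.7e-06). Klri2 was at 73.2, 65.2 and 51.8 CPM against 160, 137 and 96.4 CPM (log2 fold change -1.09 ± 0.10, edgeR adjusted p = 1.3e-05). Neither gene overlapped between the groups. Klrb1c was at 172, 142 and 135 CPM against 375, 274 and 178 CPM, with a log2 fold change of -0.87 ± 0.12 (edgeR adjusted p = 3.0e-04) that was smallest in Kaede-red, at -0.40. Without the library as a block, the calls of Klrb1c and of Klrd1 were lost.

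Klrd1 was lower at 736, 722 and 984 CPM against 1116, 869 and 1238 CPM (log2 fold change -0.46 ± 0.09, edgeR adjusted p = 0.0059), a call that was lost without Kaede-green 1 (-0.37, edgeR adjusted p = 0.087). The gene of CD94 and that of its NKG2A partner thus differed in direction in these cells. Klrk1 (log2 fold change -0.24 ± 0.09, edgeR adjusted p = 0.17), Klrc2 (0.16 ± 0.10, adjusted p = 0.52) and Klrb1f (0.26 ± 0.11, adjusted p = 0.30) did not pass. Against only the NK cells with Itga1, with or without Itgam, Klrc2 was called higher in ILC-like cells by 0.35 (edgeR adjusted p = 0.016).

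The Ly49 receptors, the other large lectin family of the complex, were lower in ILC-like cells. Of 8 Ly49 genes tested, a list named for these cells after its values were seen, 7 were lower and 0 were higher, where 2.58% of all genes were called lower and 2.65% higher. Klra8, which encodes the activating receptor Ly49H, was at 25.9, 24.6 and 18.1 CPM against 412, 324 and 245 CPM (log2 fold change -3.87 ± 0.12, edgeR adjusted p = 5.4e-11). Klra5 was at 12.9, 26.1 and 36.3 CPM against 18.6, 15.7 and 42.2 CPM and did not pass (edgeR adjusted p = 0.99). Klrb1b encodes an inhibitory NKR-P1 receptor, and 13.8% of its transcript windows are shared with Gm44511. It was higher, at 518, 434 and 410 CPM against 262, 221 and 199 CPM (log2 fold change 0.94 ± 0.09, edgeR adjusted p = 1.2e-05). Among adaptors, Tyrobp was lower by 0.83 and Fcer1g by 0.46 on the log2 scale (edgeR adjusted p = 1.8e-05 and 0.0076), whereas Hcst was not called.

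Against CD8 T cells, NK cells had more NKR-P1, KLRE1, KLRI2 and NKG2D transcript and less NKG2A transcript. Of the 8 genes, 5 were higher and 1 was lower, where 27.6% of 13167 genes were called, 12.5% higher and 15.1% lower. The median log2 fold change was 1.07 for the 8 genes and 0.00 for all. Klrc1 was at 203, 203 and 173 CPM in NK cells and at 294, 342 and 389 CPM in CD8 T cells, without overlap (log2 fold change -0.77 ± 0.11, edgeR adjusted p = 0.0057). The difference was -0.54 and -0.75 in the Kaede-green libraries and -1.17 in Kaede-red.

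Klrb1c and Klrb1f were higher by 4.01 ± 0.15 and 4.13 ± 0.17 on the log2 scale (edgeR adjusted p = 1.95e-04 and 2.02e-04). With CD8 T cells that held Ncr1 left out and a stricter NK gate, these values were 5.09 and 5.62, and without high doublet scores 5.46 and 5.34. Klri2 was at 160, 137 and 96.4 CPM against 19.6, 32.0 and 41.0 CPM (log2 fold change 2.15 ± 0.30, edgeR adjusted p = 0.0057). Klre1 was at 595, 557 and 512 CPM against 154, 210 and 262 CPM (log2 fold change 1.49 ± 0.16, edgeR adjusted p = 0.0025). In both genes the groups stood apart in all libraries and were closest in Kaede-red.

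Klrk1 was higher at 663, 560 and 504 CPM against 332, 383 and 432 CPM (log2 fold change 0.64 ± 0.13, edgeR adjusted p = 0.020), and the call was lost without Kaede-green 1 (adjusted p = 0.060) and without Kaede-green 2 (adjusted p = 0.053). Klrc2 and Klrd1 were not called over 3 libraries (log2 fold changes 0.33 ± 0.17 and 0.22 ± 0.11, edgeR adjusted p = 0.23 and 0.18). Both were called higher in NK cells without Kaede-red (0.55 and 0.29, edgeR adjusted p = 5.9e-04 and 0.017).

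Within CD8 T cells, those with Havcr2 had more of 5 receptor transcripts. Of the 8 genes, 5 were higher and 2 were lower, where 27.7% of 12393 genes were called, 13.9% higher and 13.8% lower. Klrc1 was at 418, 406 and 421 CPM with Havcr2 and at 244, 295 and 344 CPM without (log2 fold change 0.46 ± 0.08, edgeR adjusted p = 0.0033), with no overlap. Klrd1 was at 1056, 962 and 1358 CPM against 716, 717 and 1112 CPM (log2 fold change 0.38 ± 0.05, edgeR adjusted p = 0.0014), with overlap between libraries. The transcripts of both chains of the NKG2A receptor were thus higher in these cells, in 3 of 3 libraries.

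Klre1 was higher by 0.39 ± 0.07 and Klri2 by 0.60 ± 0.09 on the log2 scale (edgeR adjusted p = 0.0053 and 0.0023), and their groups overlapped between libraries. Klrk1 was at 421, 424 and 443 CPM against 295, 353 and 417 CPM (log2 fold change 0.24 ± 0.07, edgeR adjusted p = 0.032), a call that was lost without Kaede-green 1 (adjusted p = 0.065) or Kaede-green 2 (adjusted p = 0.109). Klrc2 did not pass (0.14 ± 0.06, edgeR adjusted p = 0.12). Klrb1c and Klrb1f were lower by 0.63 and 0.76 on the log2 scale (edgeR adjusted p = 0.0012 and 0.019). The levels of Klrb1c were close to those of B cells. Klrb1f was low in both CD8 T groups, and its B-cell level of 1.45 ± 2.51 CPM came from 2 of 307 cells. Without the library as a block, none of the 8 passed and the whole test called 16 genes higher and 19 lower. The median cell held 15888 UMIs with Havcr2 and 9894 without, and with all cells thinned to 5000 UMIs before gating the log2 fold changes of Klrc1 and Klrd1 were 0.47 and 0.45 (edgeR adjusted p = 0.0020 and 2.9e-04).

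Cells were then read for NKG2A and NKG2C transcripts together, with each cell thinned to 5000 UMIs. Of 6727 NK cells, 30.1% held Klrc1 without Klrc2, 16.7% held Klrc2 without Klrc1, 16.2% held both and 37.1% neither. ILC-like cells leaned to Klrc1, with 48.0% Klrc1 alone, 6.92% Klrc2 alone and 29.1% both. So did Havcr2 CD8 T cells, at 56.6%, 3.74% and 26.7%. Klrc2 alone was held by 28.5%, 29.0% and 20.6% of Itgam NK cells in the 3 libraries, and by 17.0%, 13.1% and 12.7% of Itga1 NK cells. The Itgam group was higher in each library and the groups did not overlap. Cells without a UMI can hold transcripts that were not captured. Shallower cells were left out, which took 247 of 804 Itgam NK cells, 86 of 2156 Itga1 NK cells, 30 of 507 ILC-like cells and 41 of 3781 Havcr2 CD8 T cells.

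Per-cell counts of Klrc1 were spread unevenly within groups. After thinning, 54.8% of double-negative NK cells held no UMI while 12.8% held 3 to 5, and the variance was 2.29 times the mean. In Havcr2 CD8 T cells 16.7% held none and 33.4% held 3 to 5, with a variance of 1.54 times the mean. In all NK cells this ratio was 2.18 for Klrc1 (mean 1.01 UMIs) and 1.40 for Klrc2 (mean 0.470 UMIs). Over the 8 genes, which differ in level, it ran from 1.21 for Klrb1f to 2.61 for Klrd1 (mean 5.54 UMIs). Of the 8 genes, the median Itgam NK cell and the median Itga1 NK cell held 5, the median ILC-like or Havcr2 CD8 T cell 4, and the median Treg or B cell none.

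**Figure D3:**
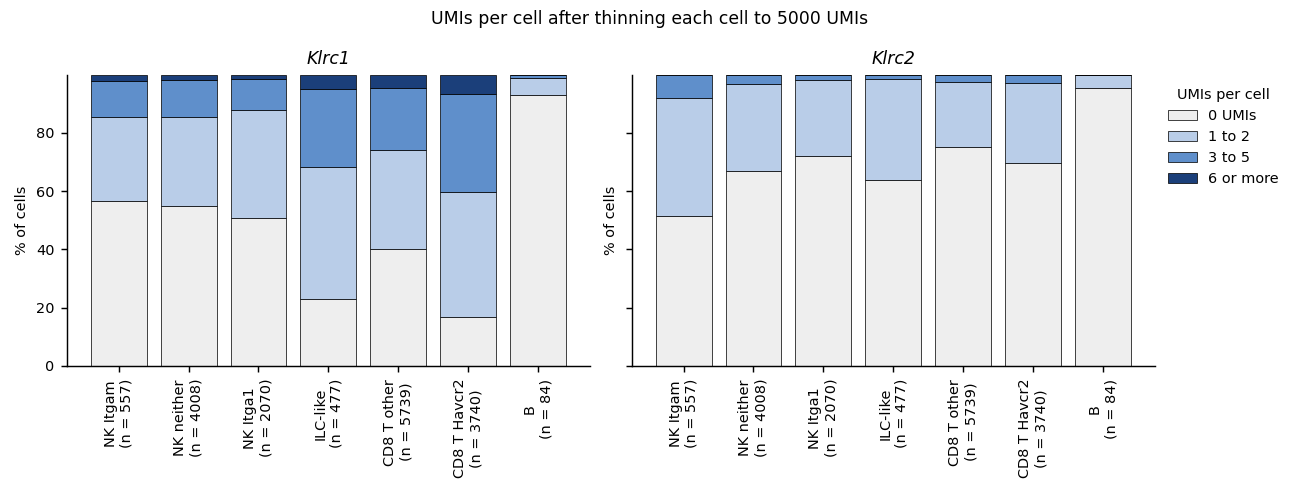
Share of cells (vertical axis, %) with 0, 1 to 2, 3 to 5, and 6 or more UMIs of Klrc1 (left) and Klrc2 (right) after each cell was thinned to 5000 UMIs, with the number of cells n under each bar. For Klrc1 the share with no UMI falls from 56.7% in Itgam NK cells to 22.9% in ILC-like and 16.7% in Havcr2 CD8 T cells, while for Klrc2 it is lowest in Itgam NK cells (51.5%).

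NK cells in which Klrc1 was detected at 2000 UMIs per cell had less KLRI2 and less of several Ly49 transcripts. The other lectin receptors of the set were not called different at that depth, but Klrc2, Klrb1f, Klrb1c and Klre1 were at 5000 UMIs. Each NK cell was thinned to 2000 UMIs, so detection did not follow depth, and 2249 of 7951 cells held Klrc1. Without thinning 4575 of 7952 NK cells held it, so the cells without detected Klrc1 include some that carry the transcript. Of the other 7 receptor genes, 0 were higher and 1 was lower, where 1.96% of 8968 genes were called, 1.12% higher and 0.847% lower. Klri2 was at 123, 133 and 81.1 CPM in Klrc1-detected cells and at 208, 159 and 120 CPM in the rest (log2 fold change -0.54 ± 0.08, edgeR adjusted p = 9.2e-07), lower in 3 of 3 libraries though libraries overlapped. Klrd1, whose product NKG2A needs as a partner, was at 1114, 853 and 1243 CPM against 1106, 877 and 1289 CPM (log2 fold change -0.04 ± 0.03, edgeR adjusted p = 0.74). Klrc2 was at 137, 128 and 86.0 CPM against 130, 110 and 73.0 CPM (0.16 ± 0.08, adjusted p = 0.51).

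Of 8 Ly49 genes, 5 were lower, 0 were higher and 3 were not called (0.847% and 1.12% of all genes were lower and higher), with a median log2 fold change of -0.32 against -0.01 over all genes. Klra4, which encodes Ly49D, was at 212, 249 and 171 CPM in Klrc1-detected cells and at 642, 508 and 422 CPM in the rest, without overlap (log2 fold change -1.32 ± 0.06, edgeR adjusted p = 5.5e-31). Klra8 was at 302, 287 and 194 CPM against 529, 425 and 335 CPM (log2 fold change -0.73 ± 0.05, edgeR adjusted p = 7.6e-19). Klra7, which encodes the inhibitory receptor Ly49G, was lower by 0.41 ± 0.05 on the log2 scale (edgeR adjusted p = 6.2e-10). Klra6 and Klra9 were lower by 1.19 and 0.22 (edgeR adjusted p = 0.0026 and 0.033). Klra1, Klra3 and Klra5 did not pass.

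Klrb1b was higher in Klrc1-detected cells, at 425, 327 and 283 CPM against 264, 212 and 200 CPM (log2 fold change 0.59 ± 0.05, edgeR adjusted p = 1.1e-13). H2-T23, the gene of the NKG2A ligand Qa-1, was higher by 0.18 ± 0.04 (edgeR adjusted p = 0.0045). It was 1 of 100 genes called higher, and Cxcl10, Ifit3 and Isg15 were higher by 0.47, 0.76 and 0.35. Whether the value of H2-T23 goes with Klrc1 apart from those genes was not tested. With 5000 UMIs per cell, Klri2 stayed lower at -0.53 (edgeR adjusted p = 9.4e-18), and Klrc2 (0.23) and Klrb1f (0.25) were called higher and Klrb1c (-0.14) and Klre1 (-0.12) lower. Transcripts of other cells moved with the split: the antibody gene Igkc was lower by 2.44 and Cd74 by 0.82 in Klrc1-detected cells on the log2 scale. Without cells of high doublet score Klri2 was at -0.56. Without the library as a block Klri2 was not called, and edgeR called 0 genes in either direction, with 113 at an unadjusted p under 0.05.

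**Figure D4:**
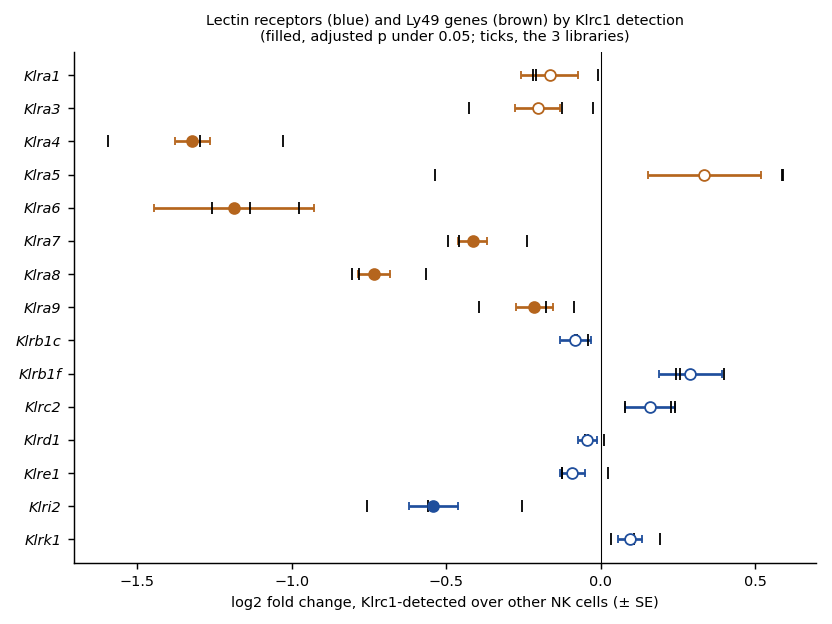
Log2 fold change (horizontal axis, ± SE) of lectin receptor genes (blue) and Ly49 genes (brown) in NK cells with Klrc1 detected over NK cells without, at 2000 UMIs per cell. Filled points passed an adjusted p of 0.05 and ticks are the 3 libraries. Klra4 lies at -1.32, Klra8 at -0.73 and Klri2 at -0.54, with all libraries to the left of 0.

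By color, the NKG2C transcript had a lower CPM in Kaede-red cells in the Itgam, double-negative and Itga1 NK groups and in ILC-like cells. Kaede-red cells had been in the tumor for longer. The CD94 transcript was higher in 4 of the 6 groups read by color, which left out the double-positive NK cells. With 1 Kaede-red library there is no test. A difference was called only where the log2 ratios of Kaede-red to both Kaede-green libraries had the same sign and exceeded the difference between the latter. By this rule, of 48 pairs of gene and group, 10 were higher, 12 were lower and 26 were within it. Among all genes with at least 30 UMIs, the rule calls 13.2% to 25.0% higher and 20.9% to 40.4% lower in the 6 groups. Such calls are thus frequent. The share of all genes called lower in these NK and ILC-like groups at once, or higher in 4 of 6 groups, was not counted. Depth is part of the color split, as the median deposited cell held 6438 and 8007 UMIs in the Kaede-green libraries and 11079 UMIs in Kaede-red, and its part in these values was not tested.

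By CPM, Klrc2 was lower in Kaede-red in the 4 NK and ILC-like groups read by color. In double-negative NK cells it was at 115 and 96.3 CPM in the Kaede-green libraries and at 65.5 CPM in Kaede-red, and in Itga1 NK cells at 90.99 and 85.1 against 60.4 CPM. The mean log2 ratio was -0.50 in Itgam NK cells, -0.68 in double-negative, -0.54 in Itga1 NK and -0.60 in ILC-like cells. At 5000 UMIs per cell, the share of cells with Klrc2 was 37.7 and 34.8% in the Kaede-green libraries and 27.0% in Kaede-red among double-negative NK cells, and 36.0 and 31.8 against 25.3% among Itga1 NK cells. In the other groups that share did not fall below the Kaede-green libraries by more than they differed. It was 47.0 and 51.0 against 44.4% in Itgam NK cells (26.3 and 26.1 against 26.7% at 2000 UMIs) and 42.7 and 35.1 against 34.4% in ILC-like cells. The Itgam value rests on 72 UMIs in Kaede-red, with an exact Poisson 95% interval of 89.7 to 144 CPM that overlaps that of Kaede-green 2, 143 to 176 CPM. In the CD8 T groups the log2 ratio was -0.05 and -0.04, within the difference between the Kaede-green libraries. Over all genes, the rule called 33.0, 40.4, 31.6 and 20.9% lower in these NK and ILC-like groups, and 22.7 and 22.0% in the CD8 T groups without and with Havcr2.

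Klrd1 was higher in Kaede-red in 4 groups. In CD8 T cells without Havcr2 it was at 716 and 717 CPM in the Kaede-green libraries and at 1112 CPM in Kaede-red, a mean log2 ratio of 0.63. The ratio was 0.43 in Havcr2 CD8 T cells, 0.43 in ILC-like cells and 0.55 in Itgam NK cells, where all genes were called higher at 25.0, 16.2, 13.2 and 19.2%. In double-negative and Itga1 NK cells, where 16.8 and 14.6% of all genes were called higher, it lay within the difference between the Kaede-green libraries.

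Klrb1c was lower in Kaede-red in Itga1 NK cells, at 267 and 209 against 153 CPM (mean log2 ratio -0.63). In the other NK and ILC-like groups read by color it did not exceed the difference between the Kaede-green libraries. It was also lower in CD8 T cells without Havcr2, at 20.9 and 24.9 against 14.7 CPM (-0.63), a level near that of B cells. Klrb1f was higher in Itgam NK cells, at 59.2 and 56.8 against 78.0 CPM (0.44), on 49 UMIs in Kaede-red. Klri2 was lower in double-negative NK cells (-0.51) and ILC-like cells (-0.42) and higher in Havcr2 CD8 T cells (0.50). Klrc1 was lower in Itga1 NK cells, at 216 and 210 against 164 CPM. In Itgam NK cells it was at 183 and 183 against 220 CPM, where 138 UMIs in Kaede-red give an exact Poisson 95% interval of 185 to 259 CPM. That interval overlaps those of both Kaede-green libraries, 167 to 200 and 166 to 201 CPM. In double-negative NK cells Klrc1 was at 203 and 203 against 188 CPM, a log2 ratio of -0.11. The mean log2 ratio of Klrk1 lay between -0.21 and 0.37 in the 6 groups.

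**Figure D5:**
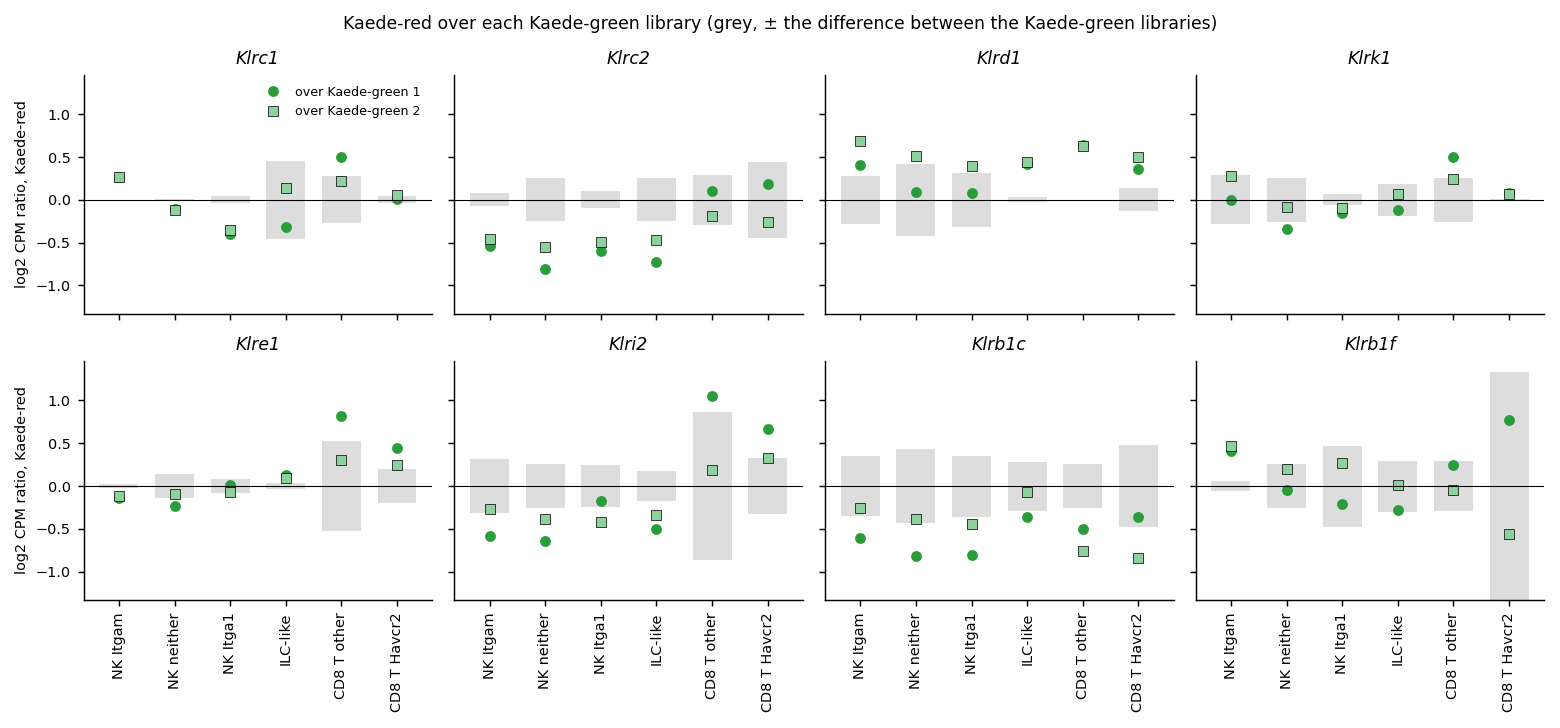
Log2 ratio of the Kaede-red level to each Kaede-green library (vertical axis; circles, Kaede-green 1; squares, Kaede-green 2) in 6 cell groups. Gray bars span ± the difference between the Kaede-green libraries. For Klrc2 both points lie below the gray bar in the 4 NK and ILC-like groups shown, and for Klrd1 both lie above it in 4 groups.

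Related receptors, adaptors, signaling proteins and ligands (29 genes) gave a wider view of the pathway. Between Itga1 and Itgam NK cells, 21 were tested, 1 was higher and 10 were lower, where 17.6% of all genes were called higher and 16.2% lower. The adaptor gene Hcst was at 414, 365 and 278 CPM against 679, 634 and 559 CPM (log2 fold change -0.75 ± 0.09, edgeR adjusted p = 1.2e-04), and Tyrobp was lower by 0.31 ± 0.07 (edgeR adjusted p = 0.0070). Cd247, which encodes the zeta chain, and the kinase gene Syk were lower by 1.02 and 1.20 (edgeR adjusted p = 1.4e-04 and 0.0021). The groups overlapped between libraries for Cd247. Clec2d, the gene of the NKR-P1B ligand Clr-b, was lower by 1.04 (edgeR adjusted p = 7.3e-04). Ptpn6, which encodes the phosphatase SHP-1 that inhibitory receptors recruit, was at 117, 112 and 129 CPM against 69.9, 85.6 and 92.3 CPM and was higher by 0.63 ± 0.11 (edgeR adjusted p = 0.0013). Depth differed between these gates, with a median of 20406.5 UMIs in Itga1 and 5996.5 in Itgam NK cells. These related genes were not read at a common depth, so the part of depth in their values is not known.

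In ILC-like cells 23 of the 29 were tested, 1 was higher and 7 were lower (2.65% and 2.58% of all genes). Between NK and CD8 T cells 24 were tested, 11 were higher and 6 were lower (12.5% and 15.1% of all genes). Tyrobp was higher in NK cells by 4.02 and Fcer1g by 3.79 on the log2 scale (edgeR adjusted p = 2.5e-04 for each), while Zap70 and Lck, kinases of T-cell receptor signaling, were lower by 0.86 and 0.65 (edgeR adjusted p = 0.0013 and 0.0035). Between CD8 T cells with and without Havcr2, 22 were tested, 4 were higher and 7 were lower (13.9% and 13.8% of all genes), and Ptpn6 was again higher, by 0.47 ± 0.06 (edgeR adjusted p = 8.6e-04). In the split of NK cells by Klrc1, 20 were tested, 2 were higher and 0 were lower (1.12% and 0.847% of all genes).

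Some genes ran alongside the receptors over the 30 sums of 10 cell groups and 3 libraries, which share libraries and depth. Among 5112 genes, the Pearson r of log2(CPM + 1) with Klrc1 was highest for Cd160 (0.929), Smim3 (0.929) and Klrd1 (0.917). For Klrk1 it was highest for Ctsw (0.981), Klrd1 (0.969) and Runx3 (0.969). For Klrd1 it was Klrk1 (0.969), Ctsw (0.962) and Dapk2 (0.948), and for Klrb1c it was Gas7 (0.978), Nrarp (0.966) and Sh2d1b1 (0.965). Within the set, r ranged from 0.459 between Klrc1 and Klrb1c to 0.969 between Klrd1 and Klrk1.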

How the data were processed

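The authors deposited raw UMI counts per gene and cell barcode from 3' libraries, not normalized, made with Cell Ranger 6.1.2 on mm10 by the submitters' processing notes (the file headers name 6.0.1), together with lists of other kinds (barcodes and gene names). The deposited totals were 87193225, 129438292 and 175848894 UMIs in 10498, 12327 and 11956 cells of the Kaede-green libraries 1 and 2 and the Kaede-red library, and 0 columns were left without a sample. The filter on cells asked for 1000 to 6000 detected genes and less than 7.5% mitochondrial UMIs. Doublets were left to the gates, and an alternative left out the top 8% of Scrublet scores (scanpy 1.11.5).

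UMIs were summed per library and group, since cells are not replicates, and tested two-sided with edgeR 4.0.16 (quasi-likelihood, TMM factors, its filter on low counts) in R 4.3.3, with the library as a block because both sums of a pair came from the same library. DESeq2 1.42.0 and other settings were alternatives. SE is the log2 fold change divided by the root of its F statistic. Data were simulated for the Itga1 and Itgam gates (9425 genes) with a fixed spread between sums that was not estimated from these data. Of the genes changed in them, 100 changed by 1 and 95 changed by 2 on the log2 scale passed the filter on low counts. The test recovered 72.0% and 98.9% of these and called 0.07% of the unchanged. The real comparison called 3191 genes, so these shares describe the simulated setting only. Gate genes, and Klrc1 in its own split, were left out of counts. All 8 genes, the 29 related genes and, for the Klrc1 split, the Ly49 genes were named by rule. Igkc, Cd74, Cxcl10, Ifit3, Isg15 and the Ly49 genes of ILC-like cells were named after their values were seen. Color ratios used 0.5 added to each UMI count. The members, gates and lists were chosen with earlier results of these data known. The same cells enter several comparisons, and p-values measure the spread between these libraries only.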

Additional observations from a re-analysis of the deposited data

Results flagged for a closer look

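For 4 of the 8 receptor genes, the log2 ratio of Kaede-red to Kaede-green took opposite signs in 2 cell groups, each time in both Kaede-green libraries and beyond the difference between them. Of 8041 genes with at least 30 UMIs in each of the 6 groups, 24.7% had such opposite calls in some pair of groups. The mean ratio of Klrc1 was 0.27 in Itgam NK cells and -0.37 in Itga1 NK cells. That of Klri2 was 0.50 in Havcr2 CD8 T cells and -0.51 in double-negative NK cells. That of Klre1 was 0.35 in Havcr2 CD8 T cells and -0.13 in Itgam NK cells, and that of Klrk1 was 0.07 in Havcr2 CD8 T cells and -0.13 in Itga1 NK cells. The difference between groups was not tested, since there is 1 Kaede-red library, and Itgam NK cells number 75 in it. In these cells the exact Poisson interval of Klre1 in Kaede-red was 538 to 660 CPM. It overlapped those of both Kaede-green libraries, 630 to 692 and 616 to 681 CPM. That of Klrc1, 185 to 259 CPM, also overlapped both, 167 to 200 and 166 to 201 CPM. Neither sign in Itgam NK cells was thus told apart from counting error. For the other ratios named here the intervals did not overlap.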

How the results depend on the processing

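Of 428 fold changes of the 8 genes recomputed under alternatives, 378 kept direction and side of the threshold, 28 lost the call, 19 gained it and 3 changed sign. Those 3 were not called in the main result: Klrb1f between Itga1 and Itgam NK cells (-0.07 without Kaede-green 1, up to 0.22 without Kaede-red), and Klrc2 (-0.04) and Klrb1f (-0.20) in ILC-like cells at 5000 UMIs. The cause was not tested for any change given here. Both sums of a pair share a library, and without the replicate block edgeR called 64 genes higher and 33 lower in ILC-like cells (299 and 292 with it), 801 and 932 between NK and CD8 T cells (1651 and 1985), 16 and 19 between CD8 T groups (1728 and 1711), and 0 and 0 in the Klrc1 split (100 and 76), where 113 genes had an unadjusted p under 0.05. Without the block, Klrd1 and Klre1 between the integrin gates, Klrd1 and Klrb1c in ILC-like cells, Klri2 in the Klrc1 split and all 8 genes between CD8 T groups were not called.
With cells thinned to 5000 UMIs the counts higher and lower were 262 and 251 between the integrin gates (1666 and 1525), 194 and 153 in ILC-like cells, 398 and 430 between CD8 T groups, and 231 and 167 in the Klrc1 split. DESeq2 called 851 lower between the integrin gates, 1063 and 1022 between CD8 T groups, and 16 and 4 in the Klrc1 split. With no filter on low counts, 514 were lower in ILC-like cells and 135 in the Klrc1 split. Against only the NK cells with Itga1, with or without Itgam, 592 were higher in ILC-like cells. Leaving out 1 library gave 894 to 1852 higher and 789 to 1640 lower between the integrin gates, 166 to 481 lower in ILC-like cells, 1018 to 2743 higher and 1323 to 2827 lower between NK and CD8 T cells, 984 to 1833 higher and 1073 to 1865 lower between CD8 T groups, and 61 to 78 higher and 40 to 49 lower in the Klrc1 split. The lowest counts came without Kaede-green 2.
With all deposited cells, the color ratio was 0.28 for Klrc1 in Itgam NK cells, -0.11 in double-negative and -0.31 in Itga1 NK cells, 0.64 for Klrd1 in CD8 T cells without Havcr2 and 0.09 for Klrk1 in Havcr2 CD8 T cells. At 5000 UMIs the share of NK cells with a UMI was 46.3% for Klrc1, 32.8% for Klrc2, 96.0% for Klrd1, 90.4% for Klrk1, 89.0% for Klre1, 39.7% for Klri2, 64.1% for Klrb1c and 24.4% for Klrb1f. Klrc1 and Klrc2 had 138 and 72 UMIs in the Kaede-red Itgam group of 75 cells.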
